A study of Mus musculus with 20 samples.

Results

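Gene expression in bone marrow pre-B cells was compared between mice lacking Artemis and mice lacking RAG-1, both carrying a transgene for the immunoglobulin heavy chain (IgH). The comparison comprised 4 of the 20 arrays of the series, chosen by their labels: 2 arrays of Artemis-deficient and 2 arrays of RAG-1-deficient pre-B cells, all with the IgH transgene, with every probe set included. Each array held a separate biological replicate per the series' design text, which names the RAG-1-deficient cells as the control, and the RNA was taken as soon as the cells had been purified. The sources used here do not give the strain or age of the mice, the way the cells were purified or the number of mice behind each array. The other 16 arrays came from pre-B cell lines transformed with v-abl and treated with 3 uM STI571, an Abl kinase inhibitor, for 48 hours. Of these, the 3 Artemis-deficient and 3 RAG-2-deficient lines were compared only to set changes in the marrow cells beside changes in the lines. The rest were wild type, Artemis- and ATM-deficient, or Artemis-deficient with a dominant negative IkB protein. They entered only the estimate of the spread, in the comparison of lines and in fits over all 7 groups.

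Developing B cells assemble their antigen receptor genes by V(D)J recombination, in which RAG-1 and RAG-2 act together to cut DNA at the receptor loci. The cut leaves coding ends sealed as hairpins, and Artemis is the nuclease that opens them before the end joining proteins ligate them. Cells without Artemis can therefore make RAG breaks but not repair the coding ends, whereas cells without RAG-1 make none. The IgH transgene supplies a heavy chain, so that cells of both genotypes can form a pre-B receptor and reach the stage at which the light chain loci are cut. DNA breaks are known to activate the kinase ATM, and through it both p53 and NF-kB, a family of transcription factors held inactive by IkB proteins.

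Levels are given as log2(signal + 11), where signal is the deposited value returned to a linear scale. A level of 1 more therefore stands for about a doubling of the signal in bright genes, and for more than a doubling in dim genes. Levels were compared between samples for 1 gene at a time and never between genes. A probe set was called when its adjusted p was below 0.05 (limma with an intensity trend, Benjamini-Hochberg over all probe sets tested). Where several probe sets named a gene, the one brightest on average over the 4 arrays stood for it. The median signal of the 4 arrays lay between 46.9 and 47.8, and 14.1% to 14.7% of the cells of the table were empty per array, mostly at low signal. Pearson's r over probe sets was 0.958 between the Artemis-deficient arrays, 0.975 between the RAG-1-deficient arrays, and 0.932 to 0.942 between the genotypes.

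The pre-B identity of the cells was checked on its markers. All 9 pre-B markers with a probe set that could be used (Cd79a, Cd79b, Vpreb1, Igll1, Pax5, Ebf1, Ighm, Il2ra and Ms4a1) were above the array's median on all 4 arrays. So were the pro-B markers Kit, Dntt and Flt3, and markers of other cells: all 8 of neutrophils and monocytes, both of dendritic cells (Itgax and Siglech), Cd8a, Thy1 and Gzma of T and NK cells, Sdc1 and Prdm1 of plasma cells, Pf4 and Itga2b of megakaryocytes, Alas2 and Slc4a1 of erythroid cells and Cxcl12 of stroma. Cd3e, a defining T cell gene, and Cr2 and Fcer2a of mature B cells reached the median on no array. S100a8, a granulocyte gene, stood at 14.20 and 14.08 in the Artemis-deficient cells and at 13.53 and 14.12 in the RAG-1-deficient cells. Gzma, a granzyme of cytotoxic T and natural killer (NK) cells, stood at 12.62 and 12.77 against 12.23 and 12.68. Ighm, which encodes the heavy chain of IgM, was high and overlapped between the genotypes, with 14.10 and 13.82 against 13.66 and 14.16.

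Of 9933 genes tested, 187 (1.88%) were called higher and 79 (0.795%) were called lower in Artemis-deficient than in RAG-1-deficient cells, 266 (2.68%) in all. At the level of probe sets, 508 of 19514 (2.6%) were called, 360 higher and 148 lower. With 2 arrays a group, values that do not overlap were common: Artemis-deficient cells were above both RAG-1-deficient arrays at 25.4% of genes and below both at 25.1%, and the median change of all genes was 0.00. The number of calls rested on the model and on single arrays. Of the genes called higher, 26 were below the array's median on both RAG-1-deficient arrays and so passed the filter through the Artemis-deficient arrays alone, and 7 of the genes called lower passed it through the RAG-1-deficient arrays alone. The size of those changes is uncertain. Another 14 listed genes (5 higher, 9 lower) were called only on a probe set other than the one standing for the gene; they are named beside their lists and not counted there. Without the intensity trend 15 probe sets were called, among them the representatives of 4 genes (Derl3, Fgd2, Pram1 and Sh2b2), and all 266 genes then had an adjusted p of at most 0.113. Of the listed genes only Derl3 was called that way. Without RAG-1-deficient replicate 1 no probe set was called (1878 had an unadjusted p below 0.05), and without RAG-1-deficient replicate 2 the count was 83. Without Artemis-deficient replicate 1 or 2 it was 1314 and 1396.

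**Figure D1:**
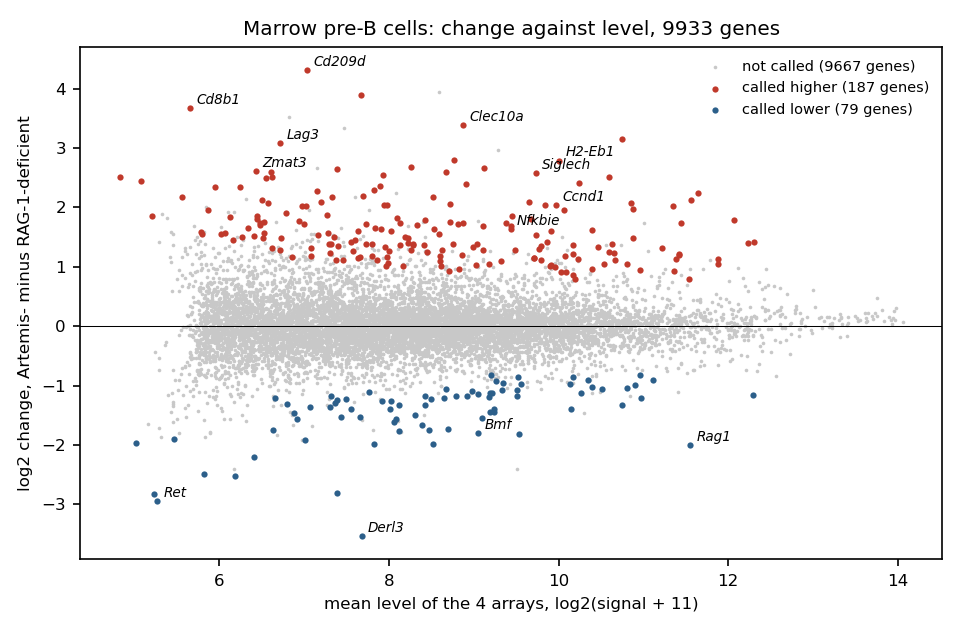
Log2 change (Artemis-deficient minus RAG-1-deficient marrow cells) of 9933 genes against the mean level of the 4 arrays, log2(signal + 11). Red points are the 187 genes called higher, blue points the 79 called lower and grey points the rest. Rises extend to 4.31 (Cd209d) and falls to -3.53 (Derl3).

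The targeted locus and the genes of the recombination machinery came first. Rag1, which encodes the deleted protein, was detected in both genotypes and was lower in the Artemis-deficient cells. Its levels were 10.82 and 10.28 in the Artemis-deficient cells and 12.39 and 12.71 in the RAG-1-deficient cells, a change of -2.0 (SE 0.22, adjusted p = 0.0226). Both RAG-1-deficient arrays were thus the higher ones for the transcript of the gene they lack. The sources used here do not say which part of the gene was removed, so the probe set does not check the labels. No probe set that could be used named Dclre1c, the Artemis gene, which was not analysed here.

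Rag2, the partner subunit, stood at 8.18 and 7.16 in Artemis-deficient cells and at 9.29 and 9.03 in RAG-1-deficient cells. The groups did not overlap, and the change of -1.49 (SE 0.32) was not called (adjusted p = 0.0609). Among the 17 tested genes of RAG and end joining, none rose and 3 fell (0.795% of all genes did): Rag1, Xrcc6 and Lig4. Xrcc6, which encodes the Ku70 subunit that binds broken ends, stood at 10.58 and 10.16 against 11.50 and 11.66, a change of -1.21 (SE 0.19, adjusted p = 0.0292). Lig4, the ligase that seals the joined ends, stood at 8.66 and 8.60 against 9.74 and 9.78, a change of -1.13 (SE 0.16, adjusted p = 0.0256). In each case both Artemis-deficient values lay below both RAG-1-deficient values. The other members included Xrcc5 (Ku80) at -0.09 and Prkdc, the kinase that activates Artemis, at 0.11. Dntt, the polymerase that adds nucleotides at junctions, was 1.09 higher without being called (adjusted p = 0.0764). The median change of the list was -0.29.

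Of 26 tested members of the pre-B receptor and its signalling, 19 had a change below 0 and 13 were lower in both Artemis-deficient arrays (25.1% of all genes were). By the test 1 fell (0.795% of all genes did) and 2 rose (1.88% of all genes did), and the median change was -0.39. Cd22, an inhibitory coreceptor, was called lower on its second probe set alone (-1.34, adjusted p = 0.04). Vpreb1, part of the surrogate light chain, stood at 10.17 and 10.00 in Artemis-deficient cells and at 11.75 and 11.08 in RAG-1-deficient cells, a change of -1.33 (SE 0.23, adjusted p = 0.0355). Igll1, the other surrogate light chain gene, changed by -1.12 (adjusted p = 0.0758) and Cd79a, a signalling chain of the receptor, by -1.10 (adjusted p = 0.0752), and neither was called. The members that rose were Fyn, a Src family kinase that is also used in T and myeloid cells, by 1.24 (SE 0.20, adjusted p = 0.0292), and Ptpn6, the phosphatase SHP-1 of blood cells in general, by 0.92 (SE 0.15, adjusted p = 0.0339).

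Among 32 tested B lineage transcription factors, 3 rose (1.88% of all genes did) and none fell on the probe sets standing for the genes. Their median change was -0.14. The genes that rose were Irf8 (1.41, SE 0.19), Tcf4 (1.20, SE 0.19) and Bcl11a (1.13, SE 0.17), which act in B cell precursors and in plasmacytoid dendritic cells. Irf8 stood at 12.88 and 13.13 in Artemis-deficient cells and at 11.41 and 11.79 in RAG-1-deficient cells. Ebf1, which commits cells to the B lineage, stood at 10.83 and 9.67 against 11.14 and 11.71 (change -1.18, adjusted p = 0.157). A second Ebf1 probe set was called lower, at 9.19 and 8.86 against 10.70 and 10.80 (change -1.73, adjusted p = 0.0226), as were 3 other probe sets of Sox4 (-1.28 to -1.58). Irf4 changed by -0.81 (adjusted p = 0.0878) and Spib by 0.67 (adjusted p = 0.0755), and neither was called. None of the 4 tested immunoglobulin genes was called by limma (1 had an unadjusted p below 0.05). In bulk samples such as these, fewer cells of a type and less RNA per cell cannot be told apart, which holds for every level given here.

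**Figure D2:**
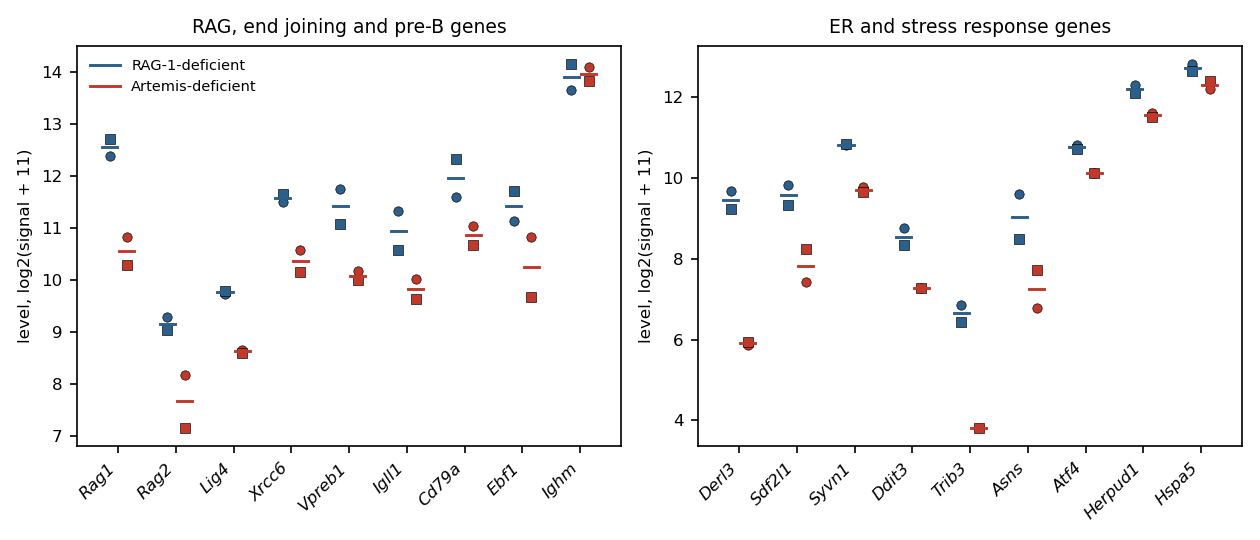
Levels of named genes on each array, log2(signal + 11), for the recombination and pre-B genes on the left and the endoplasmic reticulum (ER) and stress response genes on the right. Blue symbols are RAG-1-deficient and red symbols Artemis-deficient cells, circles are replicate 1 and squares replicate 2, and bars are group means. Rag1, Lig4, Xrcc6, Vpreb1, Derl3, Sdf2l1, Syvn1 and Ddit3 were lower in both Artemis-deficient arrays, and Ighm overlapped. Trib3 has 1 red symbol because its cell was empty in Artemis-deficient replicate 1.

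Some genes of the NF-kB pathway were higher in Artemis-deficient cells, among its inhibitors and its targets. Of 13 tested NF-kB subunits and IkB family members, 3 rose (1.88% of all genes did) and none fell. All 3 encode IkB proteins. Of 28 tested target genes, 6 rose (1.88% of all genes did) and none fell. Of these 6, Cd40 and Map3k8 passed the filter through the Artemis-deficient arrays alone, so their calls are no support for a rise of the list. The median changes were 0.36 for the subunits and inhibitors and 0.53 for the targets, beside 0.00 for all genes. Both lists hold genes that myeloid and dendritic cells also express, and markers of those cells were higher in the same arrays, as given further on. Their part in the NF-kB changes was not tested.

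Among the inhibitors, Nfkbie (IkB epsilon) stood at 10.40 and 10.11 in Artemis-deficient cells and at 8.21 and 9.02 in RAG-1-deficient cells, a change of 1.64 (SE 0.27, adjusted p = 0.0339). Bcl3, an atypical nuclear IkB protein, stood at 7.44 and 7.52 against 5.73 and 6.23, a change of 1.49 (SE 0.27, adjusted p = 0.0381). Nfkbid, another nuclear IkB protein, stood at 8.73 and 8.60 against 7.64 and 7.68, a change of 1.01 (SE 0.18, adjusted p = 0.0399). All 3 were higher in both Artemis-deficient arrays, and Nfkbie kept its call in a fit over all 7 groups of the series. A second Nfkbie probe set changed by 1.15 without a call (adjusted p = 0.0875). Nfkbia, the classical inhibitor IkB alpha, overlapped between the genotypes, with 12.53 and 12.78 against 12.58 and 12.79. Nfkbiz was high in Artemis-deficient replicate 1 alone, with 9.41 and 7.88 against 8.08 and 8.06.

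No subunit gene was called. Nfkb2, which encodes the p100 precursor of the non-canonical pathway, stood at 8.08 and 7.60 against 6.16 and 7.23, and Relb, its partner, at 6.89 and 6.94 against 5.95 and 6.45. Neither overlapped and neither was called, with changes of 1.14 (adjusted p = 0.173) and 0.71 (adjusted p = 0.251). Rela changed by 0.36 and Rel by -0.02.

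Among the targets, Cd40, a costimulatory receptor, stood at 7.43 and 7.25 in Artemis-deficient cells and at 5.40 and 5.68 in RAG-1-deficient cells, a change of 1.80 (SE 0.26, adjusted p = 0.0263); both RAG-1-deficient values were below the median signal, so that it passed the filter through the Artemis-deficient arrays alone. Tnfaip3, which encodes the feedback inhibitor A20, stood at 9.47 and 9.45 against 8.10 and 8.42, a change of 1.20 (SE 0.19, adjusted p = 0.0290). Icam1, an adhesion molecule that binds LFA-1, stood at 8.34 and 8.44 against 7.07 and 7.34, a change of 1.18 (SE 0.21, adjusted p = 0.0355). The replicates of these genes differed by far less than the genotypes did. Map3k8, the kinase Tpl2, rose by 1.58 (SE 0.31, adjusted p = 0.0472), from levels of 5.17 and 4.83 that were below the median signal too. Ccl5, a chemokine best known from T cells and macrophages, rose by 1.31 (SE 0.26, adjusted p = 0.0484), and Cd44, a receptor for hyaluronan, by 0.93 (SE 0.17, adjusted p = 0.0381). Pim2, a survival kinase, stood at 10.18 and 9.98 against 8.35 and 9.33 (change 1.24, adjusted p = 0.0856), and Traf1 at 7.34 and 7.32 against 5.83 and 6.31 (change 1.26, adjusted p = 0.058); both were separate without being called. In the fit over all 7 groups, Nfkbie, Cd40, Icam1 and Map3k8 kept their call and the other 5 of these 9 genes did not. Without RAG-1-deficient replicate 2, 1 gene of each list was called.

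**Figure D3:**
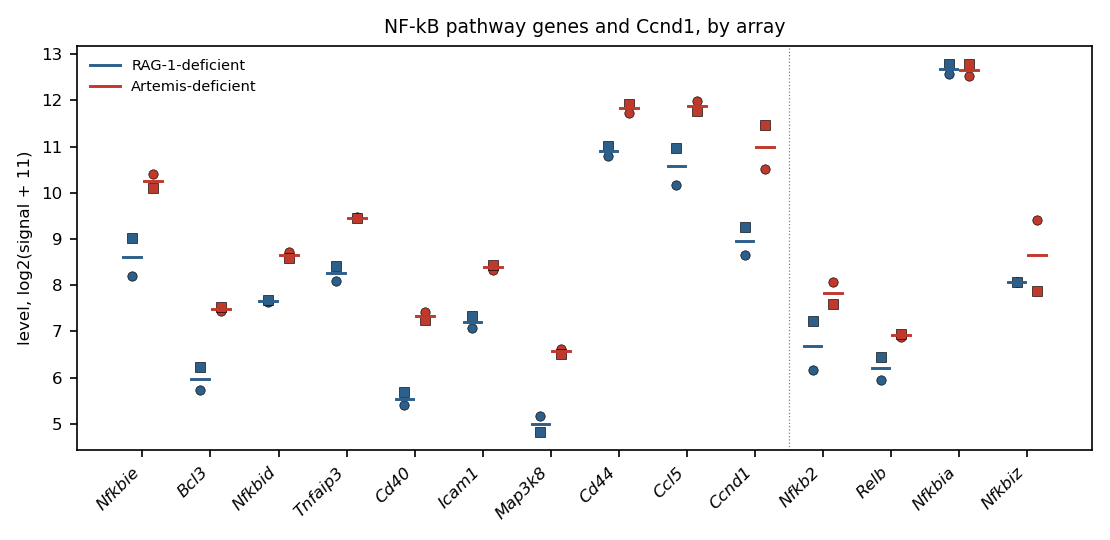
Levels of NF-kB pathway genes and of Ccnd1 on each array, log2(signal + 11), with blue for RAG-1-deficient and red for Artemis-deficient cells, circles for replicate 1, squares for replicate 2 and bars for group means. The 10 genes left of the dotted line were called higher, and their groups do not overlap. Right of it stand 4 genes without a call, of which Nfkb2 and Relb are separate and Nfkbia and Nfkbiz overlap.

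Promoter windows, from 250 bases before to 50 bases after the RefSeq gene start (GRCm38.p6), were searched for the kB consensus, the degenerate motif of NF-kB sites, on both strands. The consensus was found in 8.46% of 32851 windows and at 9.55% of 27025 genes. Of the 41 tested NF-kB genes, 33 matched a window, and 13 of these held it. Among the 6 called genes with a window, 4 held it: Bcl3, Nfkbid, Nfkbie and Tnfaip3. The Bcl3 match lies just after the start, 2 to 11 bases into the transcript. For the other 3, the stretch around the matches is printed 5′ to 3′ along the gene with the matches in capitals, to show how the called inhibitors carry the motif, beside that of Nfkb2, which was not called here. The stretches are chr17:45555579-45555618 (+) for Nfkbie, chr7:30422165-30422249 (+) for Nfkbid, chr10:19015411-19015550 (-) for Tnfaip3 and chr19:46304683-46304736 (+) for Nfkb2.
Nfkbie: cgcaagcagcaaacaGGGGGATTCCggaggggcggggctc
Nfkbid: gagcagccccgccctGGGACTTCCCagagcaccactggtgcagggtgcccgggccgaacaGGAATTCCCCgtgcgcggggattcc
Tnfaip3: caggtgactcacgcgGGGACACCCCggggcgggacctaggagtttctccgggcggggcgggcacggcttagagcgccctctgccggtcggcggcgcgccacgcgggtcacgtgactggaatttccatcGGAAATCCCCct
Nfkb2: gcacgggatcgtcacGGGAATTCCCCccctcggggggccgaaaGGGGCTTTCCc
The match of Nfkbie starts 106 bases before the gene start, those of Nfkbid 226 and 181 bases before it, and those of Tnfaip3 125 and 12 bases before it. These matches are letters in a sequence and were not measured as bound sites.

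Genes of the p53 response were mixed. Of 25 tested p53 targets, 2 rose (1.88% of all genes did) and none fell on the probe sets standing for the genes. Their median change was -0.02. Both genes that rose were below the median signal on both RAG-1-deficient arrays and passed the filter through the Artemis-deficient arrays alone, so their count is no support for a rise of the list. Zmat3, an RNA-binding p53 target, stood at 7.95 and 7.52 in Artemis-deficient cells and at 5.53 and 4.73 in RAG-1-deficient cells, a change of 2.61 (SE 0.34, adjusted p = 0.0256). Pmaip1, which encodes the proapoptotic protein Noxa, stood at 6.89 and 7.15 against 5.53 and 5.49, a change of 1.51 (SE 0.27, adjusted p = 0.0381). Both were separate, and Cdkn1a (p21) stood at 7.58 and 7.03 against 7.94 and 7.65 without a call. Mdm2 changed by -0.02, and Bbc3 (Puma) by 0.99 (adjusted p = 0.11). Other probe sets gave calls in both directions: Ccng1, not called on its brightest probe set (1.07, adjusted p = 0.061), was called higher on another (1.48, adjusted p = 0.0377). Trp53inp1 was called lower on another probe set (-1.32, adjusted p = 0.0349). Rrm2b, a ribonucleotide reductase subunit, was called lower on 2 other probe sets (-2.80 and -2.94, adjusted p = 0.0279 and 0.0381). Both Rrm2b probe sets were below the median signal on both Artemis-deficient arrays. They passed the filter through the RAG-1-deficient arrays alone, so their calls are no support for a fall.

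In the BCL-2 family and the PIM kinases (15 tested), Pmaip1 rose and Bmf fell. Bmf, a proapoptotic BH3-only protein, stood at 7.97 and 8.34 in Artemis-deficient cells and at 9.79 and 10.11 in RAG-1-deficient cells, a change of -1.80 (SE 0.21, adjusted p = 0.0226). It kept its call in the fit over all 7 groups. Bcl2, the antiapoptotic founder of the family, stood at 8.55 and 9.10 against 7.58 and 7.78 and missed the call (change 1.14, adjusted p = 0.0524).

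Few genes of the cell cycle and of DNA repair were called, and most of their changes were below 0. No gene was called among 45 of S phase and replication, 23 of break signalling and 14 of homologous recombination. Their median changes were -0.24, -0.18 and -0.36, where limma gave an unadjusted p below 0.05 at 7, 3 and 3 genes, and without the intensity trend none was called. Of 43 genes of G2 and M phase, 34 were lower in both Artemis-deficient arrays (25.1% of all genes were), the median change was -0.32, and none fell by the test on the probe sets standing for the genes (Cenpe was called lower on another, at -1.47). The one gene that rose, Pttg1 (securin, the inhibitor of chromosome separation), stood at 11.39 and 11.25 against 9.95 and 9.94, a change of 1.38 (SE 0.15, adjusted p = 0.0226). Atm changed by 0.25 and Brca1 by -0.70 (adjusted p = 0.195).

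Of 14 D cyclins and CDK inhibitors, Ccnd1 and Ccnd2 rose (1.88% of all genes did). Ccnd1, which encodes cyclin D1, stood at 10.52 and 11.46 in Artemis-deficient cells and at 8.66 and 9.25 in RAG-1-deficient cells, a change of 2.04 (SE 0.33, adjusted p = 0.0308). Ccnd2 stood at 10.57 and 10.64 against 9.75 and 9.74, a change of 0.86 (SE 0.15, adjusted p = 0.0381). Both were separate. Ccnd3, the D cyclin of pre-B cells, stood at 11.12 and 11.21 against 11.62 and 11.22 and was not called (change -0.26, adjusted p = 0.539). In the MYC network 1 of 27 genes was called, Mycl, which rose by 1.72 (SE 0.27, adjusted p = 0.0298) and is known from dendritic cells.

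Homing genes moved in both directions. Of 26 tested, 3 rose (Itgal, Icam1 and Cd44) and 1 fell (S1pr1), with a median change of 0.36. Among all genes 1.88% rose and 0.795% fell. Itgal, the alpha chain of LFA-1 that binds Icam1, stood at 10.66 and 10.89 against 9.49 and 9.63, a change of 1.22 (SE 0.17, adjusted p = 0.0256), and a second probe set changed by 0.57 (adjusted p = 0.267). S1pr1, the receptor that guides lymphocytes towards blood, stood at 6.66 and 6.80 against 7.86 and 7.95, a change of -1.18 (SE 0.21, adjusted p = 0.0381). On other probe sets Itga4 was called lower (-1.93) and Vcam1 higher (1.91, from RAG-1-deficient values below the median signal; its brightest probe set changed by 0.27). Cxcr4, which retains cells in the marrow, changed by -0.62 (adjusted p = 0.0852). Among smaller families, Tnfrsf13b (TACI) rose by 0.80 (SE 0.16, adjusted p = 0.0472) and Cd40 rose among 14 TNF family genes. The RAG-1-deficient values of Cd40 were below the median signal, as given above. Ier5 was the only called member of 26 AP-1 and immediate early genes, at 1.41 (SE 0.21, adjusted p = 0.0263).

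Markers of other cell types differed too, and those of dendritic cells had the largest median change of all lists. Of 13 tested, 9 rose (1.88% of all genes did) and none fell, with a median change of 2.18. Both Artemis-deficient arrays were higher at 12 of them (25.4% of all genes were). Siglech, a surface lectin of plasmacytoid dendritic cells, stood at 10.67 and 11.36 in Artemis-deficient cells and at 7.87 and 9.01 in RAG-1-deficient cells, a change of 2.58 (SE 0.38, adjusted p = 0.0263). Clec10a, a lectin of conventional dendritic cells and macrophages, stood at 10.09 and 11.04 against 6.37 and 7.99, a change of 3.39 (SE 0.52, adjusted p = 0.0279). Bst2, which also answers interferon, stood at 11.64 and 12.06 against 8.70 and 10.00, a change of 2.51 (SE 0.39, adjusted p = 0.0287). For all 3, RAG-1-deficient replicate 1 was the lowest array and Artemis-deficient replicate 2 the highest.

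The other dendritic markers that rose were Pacsin1 (2.68), Ccr9 (2.42), Tlr7 (2.18), Flt3 (1.48), Irf8 (1.41) and Itgax (1.04). Flt3, the receptor of early progenitors and of dendritic cells, stood at 8.80 and 9.14 against 7.45 and 7.53. Summed over the list, the signal was 20597 and 29039 on the Artemis-deficient arrays and 6003 and 8614 on the RAG-1-deficient arrays. Klk1 was called on 2 probe sets other than the one standing for it (3.90 and 5.89); on the second of these the cell of RAG-1-deficient replicate 1 was empty, so the fit used 1 RAG-1-deficient value. None of the 13 was at 0, and 3 further markers (Batf3, Xcr1 and Zbtb46) were below the median on every array. Siglech, Pacsin1 and Ccr9 kept their call in the fit over all 7 groups, and 5 members were called without RAG-1-deficient replicate 2.

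Neutrophil and monocyte markers were higher as well. Of 25 tested, 5 rose (1.88% of all genes did) and none fell. In both Artemis-deficient arrays 24 were higher (25.4% of all genes were), and the median change was 0.88. Cd68, a macrophage lysosomal protein, stood at 9.14 and 9.56 against 7.53 and 7.89, a change of 1.64 (SE 0.22, adjusted p = 0.0256). Ctsg, a granule protease, rose by 1.54 (SE 0.28), Ms4a3 of granulocyte progenitors by 1.38 (SE 0.25), Fcer1g, a signalling chain of Fc receptors, by 1.12 (SE 0.19), and Lyz2, lysozyme, by 1.05 (SE 0.16). The summed signal was 99877 and 94142 on the Artemis-deficient arrays and 51149 and 71013 on the RAG-1-deficient arrays. Without RAG-1-deficient replicate 2 no member was called.

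Of 17 T and NK cell markers, 12 were higher in both Artemis-deficient arrays (25.4% of all genes were) and 1 rose (1.88% of all genes did). The gene that rose was Cd8b1, a chain of the CD8 coreceptor, which stood at 6.70 and 8.29 against 3.68 and 3.95 (change 3.68, SE 0.52, adjusted p = 0.0256). The RAG-1-deficient values of Cd8b1 were near the bottom of the scale and below the median signal, so it passed the filter through the Artemis-deficient arrays alone and the size of its change is uncertain. Cd8a was called higher on 2 probe sets (2.23 and 2.15), both below the median signal in RAG-1-deficient cells, and not on its brightest (0.10). The summed signal of these markers was 19055 and 19307 against 11153 and 14803, and Cd3e, Cd5, Gata3 and Tcra were below the median on every array. Stromal and endothelial markers (16 tested, none called by limma, 4 at an unadjusted p below 0.05) all had changes above 0. Of the 16, 5 were higher in both Artemis-deficient arrays (25.4% of all genes were). Kdr was among them, at 8.35 and 10.05 against 6.83 and 7.09. The summed signal of the list was high in Artemis-deficient replicate 2 alone, with 6432 and 13566 against 6356 and 5585. Erythroid markers (15 tested, none called, 8 at an unadjusted p below 0.05) had a median change of -0.65. Mature B cell markers (9 tested, none called, 3 at an unadjusted p below 0.05) had one of -0.34, and Cd22 among them was called lower on its second probe set, as given above. Without the intensity trend none of these was called either.

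**Figure D4:**
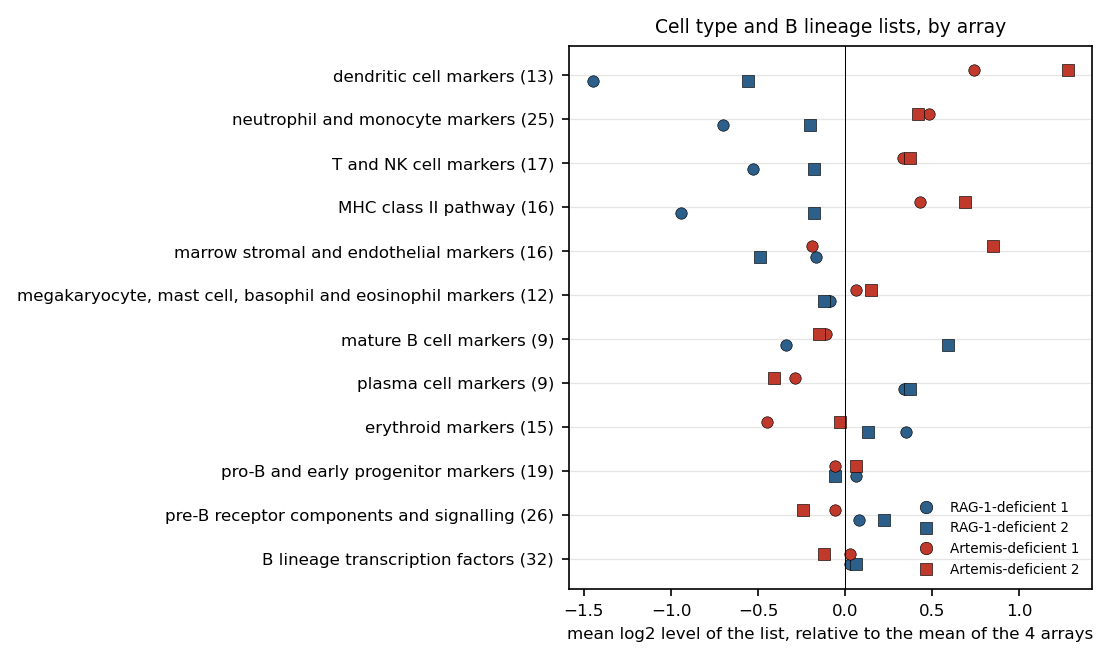
Mean log2 level of each list on each array, relative to the mean of the 4 arrays, with the number of tested genes in brackets. Blue symbols are RAG-1-deficient and red symbols Artemis-deficient cells, circles are replicate 1 and squares replicate 2. The dendritic list stood at 0.74 and 1.28 in Artemis-deficient cells and at -1.45 and -0.56 in RAG-1-deficient cells, and RAG-1-deficient replicate 2 lay nearer the Artemis-deficient arrays than replicate 1 in the first 4 lists.

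MHC class II genes, which antigen-presenting cells and B lineage cells express, followed the same order of arrays. Of 16 tested, 6 rose (1.88% of all genes did) and 1 fell (0.795% of all genes did), with a median change of 1.37. H2-Eb1, a class II beta chain, stood at 11.15 and 11.67 in Artemis-deficient cells and at 7.91 and 9.32 in RAG-1-deficient cells, a change of 2.79 (SE 0.42, adjusted p = 0.0276). Cd74, the invariant chain, stood at 12.53 and 13.02 against 9.84 and 11.21 (change 2.25, SE 0.41, adjusted p = 0.0381), and H2-Aa at 12.43 and 12.83 against 9.85 and 11.15 (change 2.13, SE 0.38, adjusted p = 0.0383). H2-DMa, which loads peptides, rose by 1.74, and Ctss, a protease of the invariant chain, by 1.21. Cd40 is counted here too, though it passed the filter through the Artemis-deficient arrays alone. H2-Ab1 was called higher on 2 other probe sets (1.96 and 2.06). The gene that fell, H2-Ob, is a class II modulator known mainly from B cells, and stood at 8.67 and 8.0 against 9.77 and 9.97 (change -1.54, SE 0.24, adjusted p = 0.0303). Without RAG-1-deficient replicate 2, 5 members were called. The part of the dendritic and myeloid markers in the class II rises was not tested.

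Interferon response genes had a median change of 0.54 over 34 tested. Of these 3 rose (Bst2, Mx1 and Trim30a, where 1.88% of all genes did) and none fell. Mx1 passed the filter through the Artemis-deficient arrays alone, so its call is no support for a rise of the list. Mx1, an antiviral GTPase, stood at 7.27 and 7.39 against 5.69 and 5.54, a change of 1.71 (SE 0.25, adjusted p = 0.0266) from RAG-1-deficient values below the median signal. Trim30a rose by 1.13 (SE 0.22, adjusted p = 0.048). The list as a whole was highest on Artemis-deficient replicate 2, with relative levels of -0.11 and 0.69 against -0.40 and -0.18. None of 16 MHC class I genes was called (7 had an unadjusted p below 0.05, and without the intensity trend none was called), and their median change was 0.31.

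Some genes of protein folding in the ER and of the unfolded protein response were lower in Artemis-deficient cells. Of 28 tested, 4 fell (0.795% of all genes did) and none rose. In both Artemis-deficient arrays 21 were lower (25.1% of all genes were), and the median change was -0.58. Of the 4, Trib3 passed the filter through the RAG-1-deficient arrays alone, so its call is no support for a fall of the list. Sdf2l1, an ER chaperone partner, stood at 7.43 and 8.23 in Artemis-deficient cells and at 9.82 and 9.32 in RAG-1-deficient cells, a change of -1.73 (SE 0.30, adjusted p = 0.0343). Syvn1, the ubiquitin ligase of ER-associated degradation, stood at 9.77 and 9.64 against 10.80 and 10.84, a change of -1.12 (SE 0.16, adjusted p = 0.0256). Ddit3 (CHOP), a transcription factor of the stress response, stood at 7.28 and 7.28 against 8.76 and 8.33, a change of -1.26 (SE 0.22, adjusted p = 0.035). Trib3, a pseudokinase that ATF4 and CHOP induce, changed by -2.83 (SE 0.42, adjusted p = 0.0323), but its cell was empty on Artemis-deficient replicate 1, so the fit used 3.82 from the other replicate, which was below the median signal, against 6.85 and 6.44.

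Several further members were separate without a call. Atf4 stood at 10.12 and 10.11 against 10.81 and 10.72 (change -0.65, adjusted p = 0.0755), Asns, the asparagine synthetase gene that ATF4 controls, at 6.77 and 7.73 against 9.59 and 8.48 (change -1.78, adjusted p = 0.0788), and Hspa5 (BiP) at 12.20 and 12.40 against 12.82 and 12.63 (change -0.43, adjusted p = 0.252). Xbp1 overlapped (change 0.04). The summed signal of the list was 34388 and 41340 on the Artemis-deficient arrays and 56198 and 47482 on the RAG-1-deficient arrays, with RAG-1-deficient replicate 1 the highest. Without RAG-1-deficient replicate 2 no member was called, and 19 of the 28 had an unadjusted p below 0.05 with all 4 arrays.

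The gene with the smallest adjusted p of all was Derl3, which encodes a channel-like protein of ER-associated degradation and is highly expressed in plasma cells. It stood at 5.87 and 5.95 in Artemis-deficient cells and at 9.67 and 9.23 in RAG-1-deficient cells, a change of -3.53 (SE 0.23, adjusted p = 0.00598). It was among the 4 genes called without the intensity trend. The other plasma cell markers were not called (9 tested, median change -0.66). Sdc1, the plasma cell surface marker CD138, stood at 9.33 and 9.12 against 9.76 and 9.97 (adjusted p = 0.113).

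The promoter windows of the same list were searched for the ER stress response element (ERSE, in which 9 free bases separate CCAAT from CCACG) and for a composite site bound by ATF4 (TGATG, 1 free base and AA), on both strands; these motifs were chosen after the values were seen. The ERSE was found in 0.119% of all 32851 windows and at 8 of the 26 members with a window: Calr, Canx, Creld2, Dnajc3, Hsp90b1, Hspa5, Pdia6 and Syvn1. Of the 4 called genes only Syvn1 held it. The ATF4 composite site was found in 3.97% of windows and at 4 of the 26 members, Asns, Chac1, Herpud1 and Trib3. The stretches of 5 members are shown because they carry the elements through which this response is known to act, with the matches in capitals: chr19:6046517-6046565 (+) for Syvn1, chr15:88819505-88819553 (+) for Creld2, chr12:17266476-17266524 (+) for Pdia6, chr6:7693210-7693247 (-) for Asns and chr2:119351034-119351071 (+) for Chac1 (RefSeq, GRCm38.p6).
Syvn1: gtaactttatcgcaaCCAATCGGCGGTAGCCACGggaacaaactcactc
Creld2: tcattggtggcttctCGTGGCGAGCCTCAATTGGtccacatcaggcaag
Pdia6: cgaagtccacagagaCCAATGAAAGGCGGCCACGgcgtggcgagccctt
Asns: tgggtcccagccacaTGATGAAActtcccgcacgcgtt
Chac1: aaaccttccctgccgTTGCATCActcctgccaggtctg
The matches of Creld2 and Chac1 are on the opposite strand. Creld2 (change -1.03, adjusted p = 0.119), Pdia6 (-0.67, adjusted p = 0.165) and Chac1 (-1.80, adjusted p = 0.0915) were not called.

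The 15 largest rises included genes outside the lists. Cd209d, a lectin related to DC-SIGN, stood at 8.95 and 9.43 in Artemis-deficient cells and at 3.65 and 6.12 in RAG-1-deficient cells, a change of 4.31 (SE 0.69, adjusted p = 0.0308). Lag3, a checkpoint receptor of T cells that plasmacytoid dendritic cells also carry, stood at 7.79 and 8.74 against 4.42 and 5.94, a change of 3.08 (SE 0.52, adjusted p = 0.0343). Ptprf, a receptor phosphatase, stood at 9.20 and 10.04 against 4.44 and 7.02, a change of 3.89 (SE 0.73, adjusted p = 0.0426). In each of these RAG-1-deficient replicate 2 lay well above replicate 1. The remaining genes among the 15 largest rises were D13Ertd608e (3.15), Ddr1, a collagen receptor (2.80), Smim5 (2.67), Eldr (2.64), Ccdc162 (2.59) and Upb1 (2.59), beside Cd8b1, Clec10a, H2-Eb1, Pacsin1, Zmat3 and Siglech. The other probe sets of Ddr1 gave changes from -0.13 to 2.81.

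The largest falls, beside Derl3, Rag1 and Bmf, were of genes with varied roles. Ret, the receptor of glial cell line-derived factors, stood at 3.70 and 3.89 in Artemis-deficient cells and at 6.25 and 7.22 in RAG-1-deficient cells, a change of -2.94 (SE 0.42, adjusted p = 0.0256). Gfra2, a coreceptor of Ret, stood at 6.94 and 6.72 against 9.08 and 8.55, a change of -1.98 (SE 0.24, adjusted p = 0.0226). Both were separate, with Ret near the bottom of the scale in the Artemis-deficient cells. Endou, a ribonuclease, fell by 1.99 on the log2 scale (SE 0.20, adjusted p = 0.0226), Lgr5, a receptor of R-spondins, by 1.75 (SE 0.20, adjusted p = 0.0226), and Irs1, an adaptor of the insulin receptor, by 1.76 (SE 0.22, adjusted p = 0.0242). The others were Col27a1 (-2.81), Smtnl2 (-2.52), Asb2 (-2.20), Dusp18 (-1.97), Bcat1 (-1.92), 1700016A09Rik (-1.90) and Phtf2 (-1.82). Ret, Smtnl2, Asb2, Dusp18 and 1700016A09Rik were below the median signal on both Artemis-deficient arrays. They passed the filter through the RAG-1-deficient arrays alone, so the sizes of their falls are uncertain.

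The change in marrow cells was set beside that between Artemis-deficient and RAG-2-deficient v-abl lines, which shares no sample with it. The lines had been treated with STI571 and their control lacks RAG-2 rather than RAG-1. Of 8834 genes tested in both on the same probe set, 111 were called higher in the marrow cells and 65 (0.736%) in the lines, and 6 in both: Ccnd1, Icam1, Map3k8, Nfkbid, Nfkbie and Tnfaip3. These are 5.41% of the genes called higher in marrow and 9.23% of those called higher in the lines. Of the 6, Map3k8 passed the marrow filter through the Artemis-deficient arrays alone. Of the genes called lower, 77 in marrow and 34 (0.385%) in the lines, none was shared. Lifr, the receptor of leukaemia inhibitory factor, was called higher in marrow (1.72) and lower in the lines (-2.71).

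For the 6 shared genes the line changes were 1.83 for Ccnd1, 0.74 for Icam1, 1.58 for Map3k8, 2.28 for Nfkbid, 2.04 for Nfkbie and 1.67 for Tnfaip3, beside marrow changes of 2.04, 1.18, 1.58, 1.01, 1.64 and 1.20. The test of the difference called none of them, with adjusted p from 0.135 (Nfkbid) to 0.999 (Map3k8). Nfkb2, Relb and Pim2 were called in the lines (3.17, 1.10 and 2.76) and not in the marrow cells (1.14, 0.71 and 1.24). For these genes too the difference between marrow and lines was not called. Of the dendritic markers 4 were tested in the lines and none was called there, of the neutrophil and monocyte markers 9 and none.

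Across all 8834 genes the marrow change differed from the line change at 9 (0.102%), and at 19 of 17633 probe sets (0.108%). The largest difference was that of Ctse, cathepsin E, which changed by 5.72 in the lines and by -0.40 in marrow; its other probe set went the other way, with -1.51 in the lines and 0.65 in marrow, and was not called. Lifr followed with a difference of 4.43 (SE 0.63, adjusted p = 0.0477), among the genes higher in marrow than in lines. Larger differences than that of Lifr were called on H2-D1 probe sets other than the one standing for the gene. These were 4.92, 4.79 and 4.49 (limma adjusted p = 0.00267, 0.0258 and 0.00193), with line changes of -4.77, -3.76 and -3.98. Further H2-D1 probe sets differed by -0.23 to 0.41 and were not called. Npc1, a cholesterol transporter, stood at 8.72 and 8.91 in Artemis-deficient and at 7.35 and 7.54 in RAG-1-deficient marrow cells, a change of 1.37, against -0.39 in the lines.

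**Figure D5:**
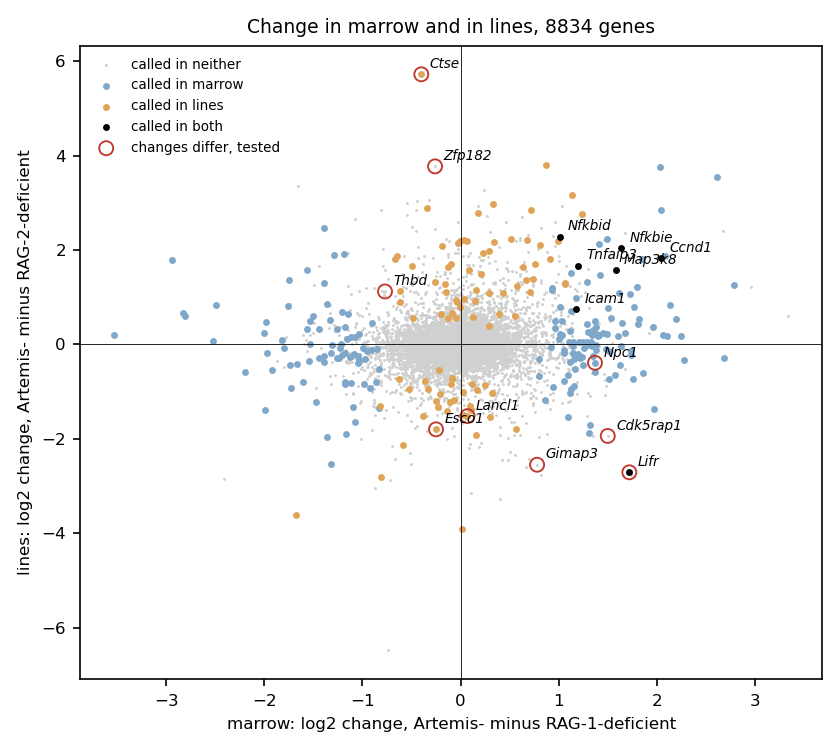
Log2 change in marrow cells (Artemis-deficient minus RAG-1-deficient, horizontal) against that in the lines (Artemis-deficient minus RAG-2-deficient, vertical) for 8834 genes. Black points are the 7 genes called in both, of which Lifr moved in opposite directions, blue and orange points are genes called in marrow or in lines, and red rings mark the 9 genes whose changes differed by the test.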

How the data were processed

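Transcripts were measured on Affymetrix Mouse 430 v2 arrays, which per the labels were hybridised with 15 ug of cRNA from 1 ug of total RNA and read with GeneChip Operating Software 1.2.0.037. The values deposited by the authors are log10 signals, a base inferred from their range, since no label names it; the sources used here do not give the summary method or the scaling. All 20 columns were matched to samples by the sample identifiers that head them. Values were returned to signals, raised by a pseudocount (11 in marrow and 6 in lines, the 25th percentile of signals) and taken to log2. Probe sets were kept when at least 2 marrow arrays reached their own median. Of 19520 kept, 19514 could be tested, 41 of the kept ones with an empty cell that the fit left out.

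Groups were compared with limma 3.58.1 (lmFit and eBayes with trend, R 4.3.3), two-sided. The 4 marrow arrays had a fit of their own. The comparison of lines came from a fit over the line samples of every genotype, which shared one estimate of the spread. Arrays of the same line were averaged first. An exact permutation test of 2 against 2 arrays cannot give a two-sided p below 0.333. The p-values measure the spread between these samples. Median marrow signals were above those of the lines, so no level was compared between them. The difference between marrow and line changes was a contrast in a fit of 10 samples.

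Genes were named from the platform annotation: 34294 of 44200 probe sets named 1 gene, 916 several and 8990 none. The genes described were drawn from the 15 largest rises and falls among called genes with separate groups and up to 5 called members of a list. The targeted genes and up to 6 a direction from the test against the lines were added. Where no member of a list was called, up to 3 were picked by smallest p, and not all of these are described. Other values in the text, including those of further list members without a call and the sequences shown, were chosen after the values were seen. Members and lists were chosen with earlier results of these data known. On simulated data for 19473 marrow probe sets, 41 of 100 changes of 1 and 98 of 100 changes of 2 (log2) were called, with 9 false calls among 148. For the difference between marrow and lines, 7 and 68 of 100 were called, with 2 false calls among 77. The simulated noise was independent between probe sets and drawn from the spread that the same model had fitted. The simulation therefore cannot show false calls that arise where many genes shift together on an array. Figures were drawn with matplotlib. Some probe sets are of Affymetrix classes that may also match other transcripts, so their values are uncertain where near-identical copies exist. They include those standing for Bmf, Ccr9, Cd40, D13Ertd608e, Ddr1, Eif4ebp1, Gfra2, H2-Aa, Hmgcs1, Nfkbie, Pttg1, Slc2a3, Syvn1 and Trib3. The H2-D1 probe sets called for the difference between marrow and lines are of these classes too.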

Additional observations from a re-analysis of the deposited data

Results flagged for a closer look

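At 9 genes the change in marrow cells (Artemis-deficient minus RAG-1-deficient) differed from the change in the v-abl lines (Artemis-deficient minus RAG-2-deficient) by limma's test of the difference itself. Below the line change were Ctse, by a marrow minus line difference of -6.12 (SE 0.62, adjusted p = 0.00736), Zfp182 (-4.03, SE 0.51, adjusted p = 0.0258) and Thbd, thrombomodulin (-1.89, SE 0.24, adjusted p = 0.0258). Above it were Lifr (4.43, SE 0.63, adjusted p = 0.0477), Cdk5rap1 (3.44, SE 0.43, adjusted p = 0.0258), Gimap3, a GTPase of lymphocytes (3.33, SE 0.44, adjusted p = 0.0329), Npc1 (1.75, SE 0.23, adjusted p = 0.0331), Lancl1 (1.59, SE 0.20, adjusted p = 0.0258) and Esco1, an acetyltransferase of cohesin (1.54, SE 0.18, adjusted p = 0.0217). Other probe sets of 2 of these genes pointed the other way without a call of the difference: Ctse at 2.16 (adjusted p = 0.306) and Esco1 at -1.06 (adjusted p = 0.21), and this Esco1 probe set was called higher in the lines (0.88, adjusted p = 0.00673). Of the 9 genes, Lifr and Npc1 were called in the marrow comparison itself. Ctse, Lancl1, Esco1 and Lifr were called in the comparison of lines, Ctse at 5.72, Lancl1 at -1.52, Esco1 at -1.80 and Lifr at -2.71. The controls and the treatment differ between the sets, and their part in these differences was not tested. Groups of 2 or 3 arrays are too small for a check of single outlying samples.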

How the results depend on the processing

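Of the alternatives, fits without the intensity trend and fits without single arrays moved the marrow counts most. Without the trend 15 probe sets, 4 genes and 1 list member were called, against 508, 266 and 56. In one fit over all 7 groups these were 325, 149 and 26, and 92 of the 266 genes were called in both. Leaving out 1 of the 4 arrays gave 0 to 1396 probe sets, 0 to 751 genes and 0 to 125 list members; a lone array was then assumed to vary like the other group. For the marrow minus line difference, 81 probe sets were called in a fit of all 7 groups against 19, and 6 to 51 without 1 sample. In the lines, 105 were called in a fit of the 6 samples alone against 253, and 100 to 210 without 1 sample. Other pseudocounts, filters, quantile normalization, median centring, a robust prior, filled empty cells and a log2 change of at least 1 kept the marrow count between 412 and 643 probe sets. No change of a called value reversed under any alternative. Empty cells lay mostly at signals near background, which limits the dimmest genes. No paired analysis was possible because the replicate numbers in the labels are not shared between the genotypes.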

Other observations

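Some called genes outside the lists share a known role; they were grouped after their values were seen, so the grouping is a description with no test. Of the genes of sterol synthesis, 3 were higher in Artemis-deficient marrow cells: Hmgcs1, an early enzyme, at 10.41 and 10.15 against 9.07 and 9.19 (change 1.15, limma adjusted p = 0.0276), Sqle, which makes the squalene epoxide, at 8.46 and 8.79 against 7.29 and 7.28 (change 1.34, adjusted p = 0.0287), and Msmo1, a later enzyme, at 8.70 and 8.29 against 6.89 and 7.33 (change 1.38, adjusted p = 0.0381). The cholesterol transporter Npc1 rose as well. Other enzymes were not called: Cyp51 changed by 0.77 (adjusted p = 0.192), Idi1 by 0.79 (adjusted p = 0.0952), Fdft1 by 0.49 (adjusted p = 0.253) and Mvd by -0.26 (adjusted p = 0.666). Lysosomal cathepsins included 5 called cysteine proteases, all higher: Ctsl, at 11.75 and 12.04 against 9.52 and 10.10 (change 2.08), Ctsh (1.97), Ctss (1.21), Ctsz (1.05) and Ctso (1.03). Ctsb (0.98, adjusted p = 0.0878), Ctsc (0.30, adjusted p = 0.481) and Ctsd (0.13, adjusted p = 0.798) were not called. Myeloid and dendritic cells are known to be rich in cathepsins, and the part of their markers, which were higher on the same arrays, was not tested.

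Besides Ret and its coreceptor Gfra2, the related coreceptor Gfra1 fell, from 10.08 and 9.75 in RAG-1-deficient to 8.78 and 8.16 in Artemis-deficient cells (change -1.44, adjusted p = 0.0343). Mthfd2, a mitochondrial folate enzyme, stood at 8.06 and 8.34 against 9.59 and 9.16 (change -1.18, adjusted p = 0.0401), and Eif4ebp1, a repressor of translation, at 8.32 and 8.55 against 9.53 and 9.51 (change -1.09, adjusted p = 0.0308). Psat1 (-0.94, adjusted p = 0.057) and Shmt2 (-0.71, adjusted p = 0.205) of serine metabolism were not called. In glycolysis and respiration no gene of 28 was called by limma, with 3 at an unadjusted p below 0.05 and none called without the intensity trend. Slc2a3, a glucose transporter, changed by 0.97 (adjusted p = 0.079) and Ldha by 0.54 (adjusted p = 0.134). Among 18 genes of the IL-7 receptor, STAT5 and SOCS proteins, Flt3 alone was called, and Il7r, the receptor that drives pre-B growth, stood at 11.88 and 11.32 against 11.96 and 11.89 (change -0.33, adjusted p = 0.486). Of 19 pro-B and early progenitor markers, Flt3 rose and Vpreb1 fell, Bst1 (-1.68), Cd93 (-0.94) and Sox4 (-1.28 to -1.58) were called lower on other probe sets only, and Kit changed by 0.52 (adjusted p = 0.363). No gene of 12 megakaryocyte, mast cell, basophil and eosinophil markers was called (4 had an unadjusted p below 0.05, none was called without the intensity trend), and their median change was 0.43.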
